A study of Rattus norvegicus with 12 samples.

Results

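Genes of adrenergic signaling, 8 in number, were followed in the neonatal rat heart: the alpha-1 receptors Adra1a, Adra1b and Adra1d, the beta receptors Adrb1 and Adrb3, the receptor kinase Grk5, and the adenylyl cyclases Adcy5 and Adcy6. They were taken by gene name, 8 of the 32545 genes in the table, whose values are fragments scaled by gene length and library depth (FPKM). The members had been selected on the FPKM differences between these same groups, so those differences are a description and carry no p. In the myocardium sampled here, 3 of the 8 stood out. Adra1a, Adrb1 and Adcy5 were lower in the left ventricle (LV) than in the right ventricle (RV) of sham rats, higher in the LV under volume overload (VO) than in the sham LV, and lower in the RV under VO than in the sham RV. By the call used here (limma with Benjamini-Hochberg adjustment, and a fold over 1.3), these 3 were called between the sham ventricles. There 3.86% of all genes tested were called, and the 3 calls were lost in several fits that left out 1 library. Between VO and sham 0 members were called within either ventricle, where 0.0935% of all genes tested were called in the LV. Within the RV 0 of the 13910 genes tested were called. Adra1a differed most, by 4.83-fold between the sham ventricles. Adra1b and Adra1d had the same order of group means as Adra1a with smaller differences, Grk5 and Adcy6 differed by no more than 0.29 on the log2 scale between ventricles of 1 treatment or between treatments of 1 ventricle, and Adrb3 was listed at 0 FPKM in every library.

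Noradrenaline from sympathetic nerves and adrenaline from the adrenal gland act on the heart through these receptors. Beta receptors couple to the stimulatory G protein Gs, which turns on adenylyl cyclase. The cyclic AMP that follows activates protein kinase A (PKA), which phosphorylates calcium channels and calcium-release channels and strengthens and quickens the beat. Alpha-1 receptors couple to Gq, which activates phospholipase C and protein kinase C and is known for a part in cardiac growth. Receptor kinases of the GRK family phosphorylate occupied receptors, after which arrestins bind and signaling falls. Sympathetic nerves reach the rodent heart around birth and keep growing in over the first weeks of life.

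The rats were Sprague-Dawley (SD) pups operated on at postnatal day 1 and studied at postnatal day 7. In the VO group a fistula was made between the abdominal aorta and the inferior vena cava, which sends arterial blood straight back to the vein and adds to the volume that both ventricles pump. The sham group had the operation without the fistula. The free walls of both ventricles were sequenced, which gave 4 groups of 3 libraries, sham LV and sham RV on the one hand and VO LV and VO RV on the other. The comparison of sham LV with sham RV asks how the ventricles differ without the fistula, and the comparison of VO with sham within a ventricle asks how that ventricle responded to the load. The labels do not give the sex of the rats, do not tell whether an LV and an RV library with the same number came from the same rat, and do not name the animals behind the libraries. The p-values below measure the spread between these libraries.

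The libraries held 14121713 to 16871371 reads on genes, and the genes of the table gave whole reads when FPKM was multiplied by gene length and by 1 depth factor per library. The 9 ventricular cardiomyocyte markers found in the table were all above 0, as the labelled tissue would have them, with a summed level of 18742 to 29878 FPKM per library. Several libraries stood apart. Sham LV replicate 2 had 14.4% of its reads on mitochondrially encoded genes, against 16.0% to 26.2% in the other 11. The atrial gene Sln reached 97.7 FPKM in sham RV replicate 1 and 388 FPKM in VO RV replicate 2 and was under 1 FPKM elsewhere. The 6 atrial markers together, Sln among them, summed to 711 to 1159 FPKM in sham LV and 215 to 1070 in sham RV, and under VO the LV had 897 to 1733 and the RV 255 to 4563, so sham RV replicate 1 was above the other sham RV libraries in the sum and within the range of sham LV. Y-linked transcripts summed to 56.1 to 64.9 FPKM in sham LV replicates 1 and 2, sham RV replicates 1 and 2 and VO RV replicate 3, and to 0.191 to 0.373 FPKM in the others, the VO LV libraries among them. By this level VO LV replicate 3 and VO RV replicate 3 are unlikely to share a rat, whereas same-numbered sham LV and sham RV libraries had like levels. Endothelial markers summed to 486 to 535 FPKM in sham LV, above the 337 to 372 FPKM of sham RV, with 381 to 424 FPKM in VO LV and 351 to 442 FPKM in VO RV. These are bulk libraries, so fewer cells of a type and less RNA per cell cannot be told apart.

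Start-site sequences are shown for Adrb1 and Adcy5, because these are the members past both thresholds used here (adjusted p under 0.05 and fold over 1.3) between the sham ventricles for which the reference table held an entry. The table (RefSeq, build GRCr8) matched 5 of the 8 members by symbol: Adra1b, Adra1d, Adrb1, Grk5 and Adcy5. Each line below is the 250 bases just before the annotated start, 5′ to 3′ on the gene's own strand, at chr1:265776853-265777102 (plus strand) for Adrb1 and chr11:79123344-79123593 (minus strand) for Adcy5. Capitals mark matches to the motifs searched, which are described after the sequences.
Adrb1: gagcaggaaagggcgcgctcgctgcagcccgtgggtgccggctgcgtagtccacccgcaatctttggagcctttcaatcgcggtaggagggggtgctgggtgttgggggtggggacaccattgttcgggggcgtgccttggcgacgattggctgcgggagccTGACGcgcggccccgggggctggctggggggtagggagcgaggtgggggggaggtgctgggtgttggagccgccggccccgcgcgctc
Adcy5: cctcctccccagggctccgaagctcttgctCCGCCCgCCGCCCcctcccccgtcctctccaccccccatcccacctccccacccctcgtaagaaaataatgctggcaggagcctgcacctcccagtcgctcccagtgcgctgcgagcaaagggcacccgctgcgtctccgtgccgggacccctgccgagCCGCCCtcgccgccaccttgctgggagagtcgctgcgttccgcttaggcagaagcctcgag
Short motifs, 6 in number, were searched on both strands: the GC box GGGCGG, the cyclic AMP response element half-site TGACG, the nuclear receptor half-site AGGTCA, the GATA motif AGATAA, the MCAT motif CATTCC and the E-box CACGTG. The printed Adrb1 stretch held 1 match, to TGACG, which began 88 bases before the start. The printed Adcy5 stretch held 3 matches to GGGCGG, read on the opposite strand, which began 220, 213 and 61 bases before the start. Among the 33469 promoters of the table, 18.2% held TGACG and 30.5% held GGGCGG in the same window, so both are common runs of letters. No matches overlapped each other. The other motifs were not in these windows, where AGGTCA was in 14.1% of all promoters, AGATAA in 10.3%, CATTCC in 12.1% and CACGTG in 5.59%. GC content was 72% before Adrb1 and 70% before Adcy5, against a median of 51.2% over the table. A match is a run of letters and not a shown binding site.

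Among the alpha-1 receptors, Adra1a (ENSRNOG00000009522, chr15:43298794-43392451, plus strand) varied most, with a 12.8-fold range over the 12 libraries. Coordinates of the members are those deposited with the table, whose genome build was not given in the sources used here. The FPKM of Adra1a was 0.766, 0.665 and 1.63 in sham LV (1.02 ± 0.529, mean ± SD, n = 3) and 8.52, 5.70 and 5.84 in sham RV (6.69 ± 1.59). In the overloaded ventricles it was 4.19, 4.67 and 6.93 in VO LV (5.26 ± 1.46) and 2.96, 2.76 and 1.07 in VO RV (2.27 ± 1.04). The order of the group means was therefore sham LV, VO RV, VO LV and sham RV, and sham LV and VO RV did not overlap VO LV and sham RV, while the neighbours within each pair did overlap. These levels rest on 22 to 46 reads per library in sham LV and on 36 to 287 reads in the others, so the low group is also the least precisely counted.

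Adra1b (ENSRNOG00000060087, chr10:29392762-29450644, minus strand) was the most abundant alpha-1 receptor by FPKM in every group. It stood at 13.1, 11.8 and 11.8 FPKM in sham LV (12.3 ± 0.778) and 18.5, 22.5 and 13.6 in sham RV (18.2 ± 4.48), and under VO the LV had 17.8, 12.7 and 22.0 (17.5 ± 4.65) and the RV 17.6, 8.61 and 14.7 (13.6 ± 4.59). The sham LV libraries were close together and all below the sham RV libraries, but every pair of neighbours in the order of means overlapped. Adra1d (ENSRNOG00000021256, chr3:124129558-124145566, minus strand) is the subtype best known from arteries. Its FPKM was 3.44, 3.37 and 4.21 in sham LV (3.67 ± 0.467) and 5.47, 5.45 and 4.84 in sham RV (5.25 ± 0.356), and under VO the LV had 4.55, 4.93 and 4.57 (4.68 ± 0.210) and the RV 5.54, 3.33 and 3.45 (4.10 ± 1.24). VO RV replicate 1 thus held the highest Adra1d value of all 12 libraries while the other VO RV libraries were among the lowest. Sham LV was lowest and below both sham RV and VO LV without overlap. The sum of smooth muscle and pericyte markers was 544 to 712 FPKM in sham LV and 474 to 524 in sham RV, and under VO the LV had 516 to 648 and the RV 475 to 652. The top of this range was in sham LV, where Adra1d was lowest, and its part in the Adra1d levels was not tested.

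Adrb1 (ENSRNOG00000017002, chr1:277537585-277538985, plus strand) is the main beta receptor of cardiomyocytes, and its 1401-base span in the table equals its gene length, a single block without introns. Its FPKM was 8.26, 9.20 and 11.6 in sham LV (9.70 ± 1.75) and 15.7, 17.4 and 16.0 in sham RV (16.4 ± 0.914), and under VO the LV had 17.1, 15.4 and 19.4 (17.3 ± 1.97) and the RV 14.3, 11.98 and 9.77 (12.03 ± 2.28). Sham LV and VO RV formed the lower groups and overlapped each other, and sham RV and VO LV formed the higher groups and overlapped each other, with no value in common between lower and higher groups. Adrb3 (ENSRNOG00000012674, chr16:69003868-69006632, plus strand), the beta receptor of fat tissue, was listed at 0 FPKM in all 12 libraries. A count of 0 allows up to 3 reads, which at this gene's length is 0.0772 to 0.0999 FPKM depending on the library and covers counting error only. Adrb3 was therefore not detectable at this depth and was left out of the fit.

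**Figure D1:**
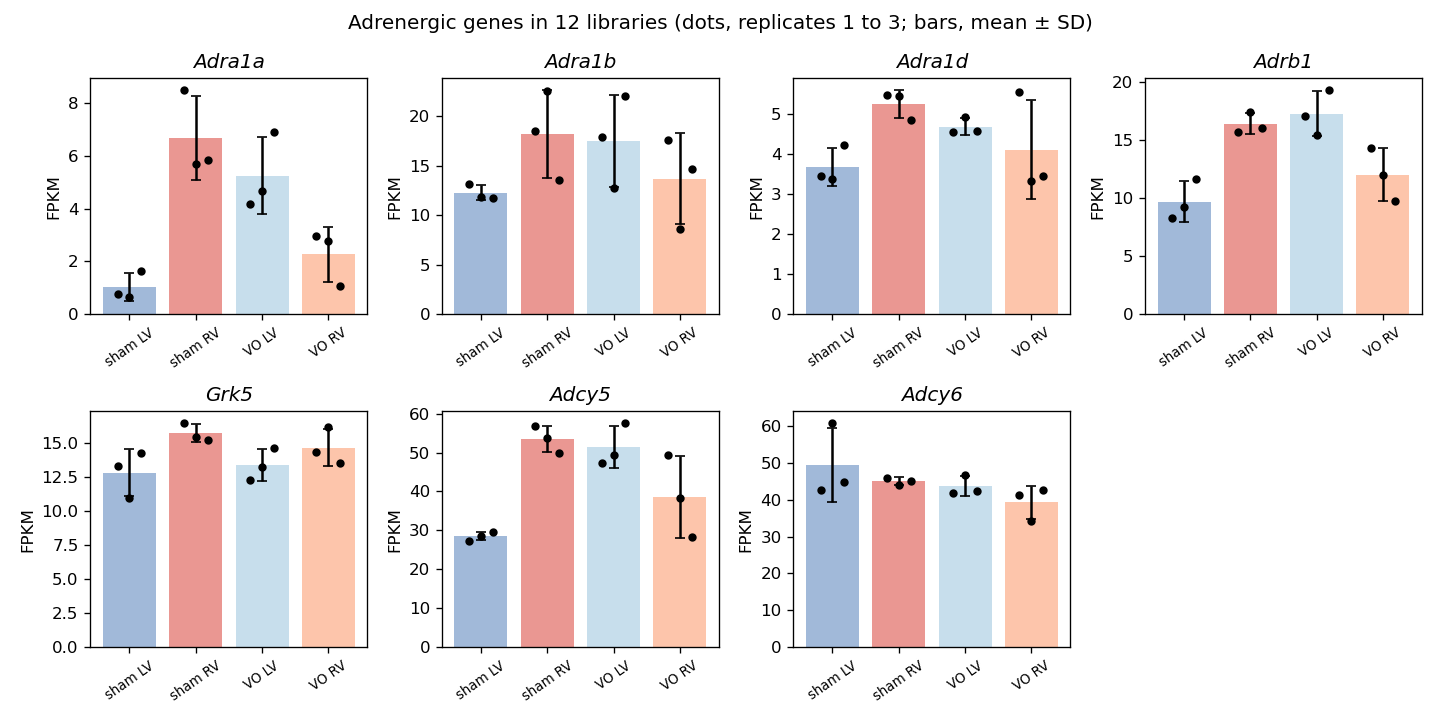
FPKM of the 7 members with reads (vertical axes, FPKM, each from 0) in the 4 groups named on the horizontal axes. Dots are the 3 libraries of a group from replicate 1 on the left to replicate 3 on the right, and bars are the mean with its SD. Adra1a, Adrb1 and Adcy5 were low in sham LV and VO RV and high in sham RV and VO LV.

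Grk5 (ENSRNOG00000011439, chr1:282265370-282462605, plus strand), which phosphorylates beta receptors and also enters the nucleus, had the narrowest range of the 7 members with reads, 1.51-fold. Its FPKM was 13.3, 10.9 and 14.2 in sham LV (12.8 ± 1.71) and 16.5, 15.4 and 15.2 in sham RV (15.7 ± 0.677), and under VO the LV had 12.2, 13.2 and 14.6 (13.4 ± 1.19) and the RV 14.3, 16.1 and 13.5 (14.6 ± 1.36). In both treatments the RV mean was above the LV mean, without overlap only in the sham groups.

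The cyclases Adcy5 and Adcy6 are the main cardiac isoforms, both inhibited by Gi and by calcium. Adcy5 (ENSRNOG00000002229, chr11:68695839-68842320, minus strand) stood at 27.4, 28.6 and 29.5 FPKM in sham LV (28.5 ± 1.10) and 56.7, 53.7 and 49.9 in sham RV (53.5 ± 3.40), and under VO the LV had 47.3, 49.3 and 57.7 (51.4 ± 5.51) and the RV 49.5, 38.2 and 28.2 (38.6 ± 10.6). The VO RV libraries were spread from the level of sham LV to just below that of sham RV, with an SD of 10.6 against 1.10 to 5.51 in the other groups. Adcy6 (ENSRNOG00000054757, chr7:140270692-140291620, minus strand) was 42.7, 61.0 and 44.9 FPKM in sham LV (49.5 ± 9.99) and 46.1, 44.1 and 45.2 in sham RV (45.1 ± 0.985), and under VO the LV had 41.9, 46.9 and 42.5 (43.8 ± 2.73) and the RV 41.3, 34.3 and 42.6 (39.4 ± 4.44). Its highest value was in sham LV replicate 2, the library with the lowest mitochondrial share, and its lowest in VO RV replicate 2, one of the libraries with Sln. In sham LV the mean of Adcy6 was above that of Adcy5, in sham RV and VO LV it was below, and in VO RV the means were close at 39.4 and 38.6 FPKM.

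Within the libraries the levels of Adra1a, Adrb1 and Adcy5 moved together. Pearson's r over the 12 libraries was 0.943 for Adra1a with Adrb1, 0.962 for Adra1a with Adcy5 and 0.947 for Adrb1 with Adcy5, on log2 values. Adra1a and Adra1d gave 0.801, and Adra1a and Adcy6 gave -0.25. Each point is a library shared by both genes, so these values describe the group differences above and library effects together. No correlation within groups was computed.

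**Figure D2:**
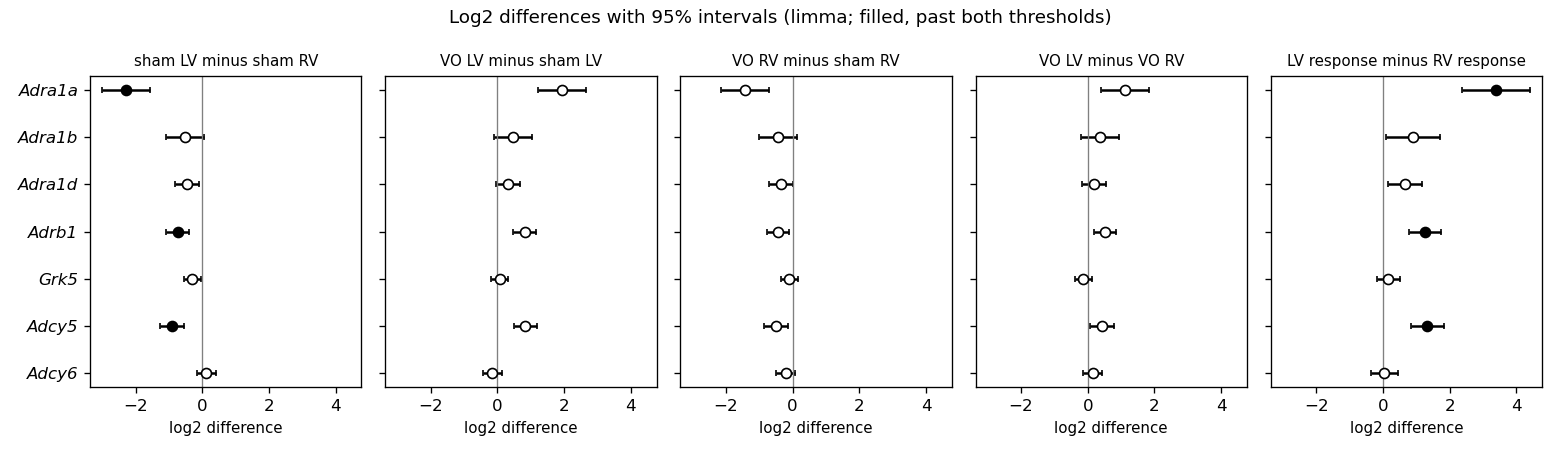
Log2 differences (horizontal axes) of the 7 members with reads in 5 comparisons, with 95% intervals from limma, filled where both thresholds were passed. Adra1a, Adrb1 and Adcy5 lay left of 0 between the sham ventricles and right of 0 in the difference of the responses.

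The differences below are log2 values of FPKM, divided by a size factor, plus 0.5, from limma over all 13910 genes with a mean of at least 0.5 FPKM. Because of the added 0.5, the folds of low genes such as Adra1a are understated. A gene was called where its adjusted p was under 0.05 and its fold over 1.3. Since the members were chosen for what these contrasts show, they are given with their standard error (SE) and without a p, and the number called is a description from which nothing is read.

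Between the sham ventricles, 6 of the 7 members with reads were lower in the LV and Adcy6 was not. Adra1a was lower by 4.83-fold (log2 difference -2.27, SE 0.33). Adcy5 was lower by 1.86-fold (-0.90, SE 0.16) and Adrb1 by 1.67-fold (-0.74, SE 0.15). These 3 were called, where 3.86% of all genes tested were called and 2.35% were called lower in the LV. Adra1b (-0.52, SE 0.26), Adra1d (-0.47, SE 0.16) and Grk5 (-0.29, SE 0.11) did not pass both thresholds, although their sham LV and sham RV values did not overlap. Non-overlap in this direction held for 6 members and for 16.6% of all genes tested. Adcy6 differed by 0.11 (95% interval -0.17 to 0.40), and without sham LV replicate 2 the difference was -0.04. The median over the members was -0.52, beside 0.01 over all genes tested.

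The calls between the sham ventricles depended on single libraries. None of the 3 was called without sham LV replicate 1, sham LV replicate 2, sham RV replicate 1, sham RV replicate 2 or VO LV replicate 2, whereas the sizes stayed between -2.54 and -2.10 for Adra1a, between -0.87 and -0.64 for Adrb1 and between -0.94 and -0.85 for Adcy5 over all 12 such fits. Adrb1 was also not called without sham RV replicate 3 or VO LV replicate 1. Adra1d was called in addition without VO RV replicate 1. Genes of at least 4000 bases were low relative to genes under 1500 bases in all sham LV libraries (-0.17 to -0.10, median log2 deviation of long minus short genes) and spread from -0.03 to 0.21 in sham RV. With each library's trend against gene length removed, the differences were -2.27 for Adra1a, -0.80 for Adrb1 and -0.82 for Adcy5. With both libraries with Sln left out they were -2.10, -0.77 and -0.85 in the same order, and none of the 3 was called, nor with the replicate number as a block or when all genes above 0 were tested. Endothelial markers moved in the opposite direction, higher in sham LV, as did the red blood cell list (13383 to 17339 FPKM in sham LV against 6777 to 11368 in sham RV) and the fat list (813 to 1100 against 451 to 533 FPKM, with 5 of its 6 genes under 1 FPKM on average, so that its sum rests almost wholly on the remaining gene). Their part in the differences was not tested.

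**Figure D3:**
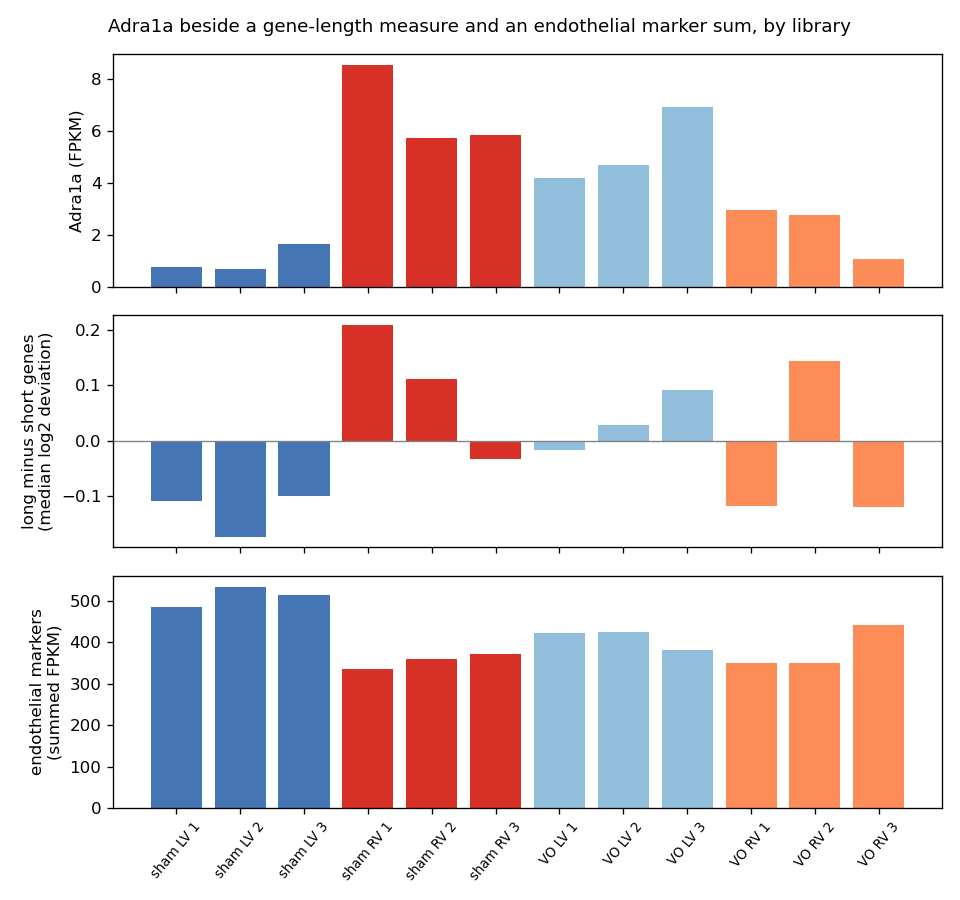
Adra1a (top, FPKM), the median log2 deviation of long minus short genes (middle) and the sum of endothelial markers (bottom, FPKM) in each of the 12 libraries, coloured by group. The sham LV libraries had the lowest Adra1a as a group, negative length measures and the highest endothelial sums, 486 to 535 FPKM. In VO RV, replicates 1 and 3 had length measures of -0.12 with 2.96 and 1.07 FPKM of Adra1a, and replicate 2 had 0.14 with 2.76 FPKM.

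In the LV under VO, the libraries overlapped those of sham RV for Adra1a, Adrb1 and Adcy5. Adra1a was higher than in sham LV by 3.85-fold (1.95, SE 0.33), Adcy5 by 1.79-fold (0.84, SE 0.16) and Adrb1 by 1.76-fold (0.81, SE 0.15), each without overlap of the libraries. Adra1d was higher by 0.32 (SE 0.16), also without overlap, and Adra1b by 0.47 (SE 0.26) with overlap. Grk5 differed by 0.07 (95% interval -0.18 to 0.31) and Adcy6 by -0.16 (95% interval -0.44 to 0.12). Over the 12 fits without 1 library Adra1b ran from 0.29 to 0.67, Grk5 from -0.04 to 0.14 and Adcy6 from -0.26 to -0.002. None of the 7 was called, where 0.0935% of all genes tested, 13 in number, were called while 2185 met the fold threshold at an unadjusted p under 0.05. Non-overlap with the VO LV values higher was seen for 4 members and for 16.7% of all genes tested. Adra1a, Adrb1 and Adcy5 were called without sham LV replicate 3, without VO RV replicate 1, without VO RV replicate 3, and with limma-voom on the recovered reads. Of the sham LV libraries 2 had the high level of Y-linked transcripts and of the VO LV libraries 0, so the load is in part confounded with the sex of the pups in this comparison, the 3.85-fold difference of Adra1a included. With the Y-linked level as a covariate the differences were 1.58 for Adra1a, 0.65 for Adrb1 and 0.72 for Adcy5. Several marker lists were lower in VO LV than in sham LV without overlap: the endothelial list, as given above, the fibroblast list (1974 to 2427 against 2471 to 2685 FPKM), the macrophage list (38.0 to 41.0 against 42.2 to 46.6 FPKM) and the fat list, whose sum rests almost wholly on a single gene (536 to 673 against 813 to 1100 FPKM). Their part in these differences was not tested. The measure of long minus short genes was -0.02 to 0.09 in VO LV, above that of sham LV, and with the length trend removed the differences were 1.94 for Adra1a, 0.86 for Adrb1 and 0.78 for Adcy5.

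In the RV under VO, all 7 members had a lower mean than in the sham RV. Adra1a was lower by 2.71-fold (-1.44, SE 0.33), Adcy5 by 1.41-fold (-0.50, SE 0.16) and Adrb1 by 1.36-fold (-0.45, SE 0.15). These 3 and Adcy6 (-0.20, SE 0.13) did not overlap between the groups, which 6.87% of all genes tested did in this direction. No member was called, and with limma 0% of all genes were, nor any with limma-voom, while 683 met the fold threshold at an unadjusted p under 0.05. Adra1b differed by -0.43 (95% interval -1.004 to 0.15), Adra1d by -0.35 (-0.71 to 0.01) and Grk5 by -0.10 (-0.35 to 0.15). These sizes depended on single VO RV libraries. Adra1d differed by -0.56 without VO RV replicate 1, Adcy5 by -0.29 without VO RV replicate 3, and Adcy6 by -0.11 without VO RV replicate 2. Over all 12 fits without 1 library Adra1b ran from -0.64 to -0.14 and Grk5 from -0.17 to -0.04. Without both libraries with Sln the differences were -1.42 for Adra1a, -0.48 for Adrb1 and -0.47 for Adcy5. Adra1b then differed by -0.12 and Adcy6 by -0.09. The measure of long minus short genes was -0.12, 0.14 and -0.12 in the VO RV libraries, against -0.03 to 0.21 in sham RV, so it was lower in VO RV replicates 1 and 3. With the length trend removed the differences were -1.44 for Adra1a, -0.47 for Adrb1 and -0.44 for Adcy5. Y-linked transcripts were high in sham RV replicates 1 and 2 and VO RV replicate 3, so sex was not balanced here either. With the Y-linked level as a covariate the differences were -1.63 for Adra1a, -0.53 for Adrb1 and -0.56 for Adcy5. Macrophage markers summed to 41.1, 68.2 and 59.3 FPKM in VO RV and to 35.5 to 42.5 in sham RV. In VO RV replicate 2 the fibroblast list reached 4692 FPKM, against 2650 to 3496 in sham RV, and the ventricular cardiomyocyte list was at 18742, against 22871 to 26731. The part of the macrophage and fibroblast lists in the differences was not tested.

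Between the overloaded ventricles 6 of the 7 members with reads had the higher value in the LV, and Grk5 had the lower. Adra1a was 2.16-fold higher in VO LV than in VO RV (1.11, SE 0.33) and Adrb1 1.43-fold higher (0.52, SE 0.15), both without overlap, which 8.45% of all genes tested showed in this direction. Adcy5 was higher by 0.44 (SE 0.16), with VO RV replicate 1 inside the range of VO LV, and by 0.23 without VO RV replicate 3. With the Y-linked level as a covariate the differences were 0.93 for Adra1a, 0.43 for Adrb1 and 0.38 for Adcy5. No member was called, where 0.00719% of all genes were. The differences of the others were 0.37 for Adra1b, 0.20 for Adra1d, 0.15 for Adcy6 and -0.13 for Grk5. Without VO RV replicate 2 these 4 were 0.08, 0.09, 0.06 and -0.06 in the same order, and without VO RV replicate 1 Adra1b was at 0.58 and Adra1d at 0.41. Other single libraries also moved them by over 1.5 times, within ranges of 0.08 to 0.58 for Adra1b, 0.09 to 0.41 for Adra1d, 0.06 to 0.21 for Adcy6 and -0.19 to -0.06 for Grk5. Macrophage markers also did not overlap, at 38.0 to 41.0 FPKM in VO LV and 41.1 to 68.2 in VO RV, and VO RV replicate 2 stood apart in the fibroblast and cardiomyocyte lists as given above. Their part in the differences was not tested.

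The difference of the responses, VO minus sham in the LV less VO minus sham in the RV, was largest for Adra1a among the members (3.38, SE 0.46, 95% interval 2.37 to 4.40). It was 1.33 for Adcy5 (SE 0.23) and 1.26 for Adrb1 (SE 0.22). These 3 were called, where 4.19% of all genes tested were called and 3.46% were called with a higher response in the LV. Adra1b (0.90, SE 0.37) and Adra1d (0.67, SE 0.23) were not called. Grk5 differed by 0.16 (95% interval -0.19 to 0.52) and Adcy6 by 0.04 (95% interval -0.36 to 0.44). Over the 12 fits without 1 library Grk5 ran from 0.06 to 0.24 and Adcy6 from -0.06 to 0.20. This contrast and the comparison of the sham ventricles use the same sham libraries, so they are not separate evidence. None of the 3 calls was made without sham LV replicate 1 or 2, sham RV replicate 1 or 2, or VO LV replicate 2 or 3. None was made without both libraries with high Sln or with the replicate number as a block in the fit, and only that of Adra1a was made when all genes above 0 were tested. With the length trend removed the values were 3.38, 1.22 and 1.32 for Adra1a, Adcy5 and Adrb1. With the Y-linked level as a covariate they were 3.21, 1.28 and 1.18 in the same order.

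The alpha-2 receptors had lower group means than the members with reads. Adra2a, a receptor that restrains noradrenaline release from nerve endings, had 0 to 15 reads per library and was not tested, nor was Adra2c with at most 2 reads. Adra2b was tested and not called by limma or limma-voom, and its mean level ran from 0.558 to 0.895 FPKM over the groups.

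Markers of sympathetic neurons were low in these libraries. Their 9 genes summed to 3.69 to 7.14 FPKM, Npy had 0 FPKM in all libraries, and 6 of the 9 averaged under 1 FPKM. Th, the rate-limiting enzyme of catecholamine synthesis, was at most 0.140 FPKM, whereas Dbh, which makes noradrenaline from dopamine, averaged 1.82 FPKM in sham LV and 1.88 in sham RV, and under VO the LV had 2.50 and the RV 2.16. Of the 11 genes of catecholamine synthesis, uptake and breakdown, 7 were tested. None was called by limma or limma-voom, and at most 1 in any comparison met the fold threshold at an unadjusted p under 0.05. This was Ddc, at 28.1 FPKM in sham LV and 37.7 in sham RV without overlap (limma adjusted p = 0.0682). Between the sham ventricles 2 of the 12 fits without 1 library called it. Its difference of the responses was 0.56 (SE 0.17, limma adjusted p = 0.0775).

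The receptor kinase most studied beside Grk5 is Grk2, listed in the table under its older symbol Adrbk1. It was even across the groups, with means of 21.3 FPKM in sham LV and 21.6 in sham RV, and under VO the LV had 22.8 and the RV 22.1. Its 95% interval ran from -0.20 to 0.16 between the sham ventricles and from -0.19 to 0.31 in the difference of the responses (limma adjusted p = 0.897 and 0.760). Of the 6 other receptor kinases and arrestins tested, Grk2 among them, 0 were called by limma or limma-voom, and at most 1 in any comparison met the fold threshold at an unadjusted p under 0.05. Among G protein subunits and RGS proteins, 27 genes were tested and 1 was called, a share near the 3.86% over all genes. This was Rgs2, an inhibitor of Gq signaling, which was lower in sham LV (13.9 ± 0.851 FPKM) than in sham RV (25.6 ± 3.71 FPKM). Gnas, which encodes the alpha subunit of Gs, has 2 entries in the table. Its main entry averaged 161 FPKM in sham LV and 143 in sham RV, and under VO the LV had 137 and the RV 155. It was not called in any comparison, with VO LV minus sham LV at -0.23 (95% interval -0.50 to 0.04, limma adjusted p = 0.278). Of the 5 other adenylyl cyclases tested, 0 were called by limma, 1 was called by limma-voom in the difference of the responses, and at most 2 in any comparison met the fold threshold at an unadjusted p under 0.05. Adcy9, the one that limma-voom called, averaged 0.956 FPKM in sham LV and 1.82 in sham RV, and under VO the LV had 1.56 and the RV 1.07. This is the same order of groups as for Adcy5. The other 4 cyclases had negative differences of the responses, from -0.66 for Adcy4 to -0.03 for Adcy7, and the list's median was -0.40. Adcy9 had a limma adjusted p of 0.0877 between the sham ventricles and 0.0669 for the difference of the responses.

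Downstream of the receptors, called genes were found among the PKA regulators, the phosphodiesterases, the effectors of alpha-1 receptors and the PKA targets. In all, 114 other genes of the pathway that are reported here were tested. Between the sham ventricles, 10 were called lower and 2 called higher in the LV, beside 3.86% called over all genes tested. In the difference of the responses 14 were called with the higher response in the LV, beside 4.19% called over all genes tested. In the other 3 comparisons none was called by limma, where 30 genes (VO LV minus sham LV), 12 (VO RV minus sham RV) and 15 (VO LV minus VO RV) met the fold threshold at an unadjusted p under 0.05 and limma-voom called 10, 0 and 0. Beyond Hcn4, Cacnb2, Pde7b and Ryr2, the called genes below are named with their values already seen. Over these genes the median was -0.07 between the sham ventricles and 0.16 in the difference of the responses, beside 0.01 and -0.04 over all genes tested. The lower level of long genes in sham LV and the endothelial, red blood cell and fat lists given above moved with these comparisons as well. With the length trend removed 11 pathway genes were called between the sham ventricles and 14 in the difference of the responses, and the part of the marker lists was not tested. In both comparisons 0 pathway genes were called without both libraries with high Sln, with the replicate block, when all genes above 0 were tested, or without sham LV replicate 1 or 2 or sham RV replicate 1 or 2. In the difference of the responses 0 were called without VO LV replicate 2 or 3 either, 7 without VO LV replicate 1 and 5 when VO RV replicate 3 was left out, and between the sham ventricles 1 without VO LV replicate 2, 5 without VO LV replicate 1 and 6 without sham RV replicate 3.

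Of the 18 genes of PKA, Epac and their anchoring proteins, 2 were called lower in the sham LV, where 2.35% of all genes tested were, and 6 were called with the higher response in the LV, where 3.46% were. The list's medians were -0.36 and 0.51. Prkar2a, a regulatory subunit of PKA, averaged 8.17 ± 1.62 FPKM in sham LV and 17.8 ± 2.29 in sham RV, and Akap6, which anchors PKA at the nuclear envelope, 5.50 ± 1.01 and 14.6 ± 4.63 FPKM. Both were among the 6 called in the difference of the responses with Prkar1a, Pkia, Akap1 and Akap7. Pkia encodes an inhibitor of PKA, and the regulatory subunits restrain its catalytic subunits.

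Of the 11 phosphodiesterases, which break down cyclic AMP, 2 were called lower and 1 called higher in the sham LV, beside 3.86% called over all genes tested. Pde7b was at 1.99, 2.10 and 2.21 FPKM in sham LV and 4.05, 4.44 and 4.62 in sham RV (-0.90, SE 0.16, limma adjusted p = 0.0319). Its values were 3.66, 4.20 and 4.80 in VO LV and 2.77, 3.58 and 2.10 in VO RV, and its difference of the responses was 1.43 (SE 0.23, limma adjusted p = 0.0249). Pde4a was the other one called lower (-0.59, SE 0.14) and Pde2a, which cyclic GMP stimulates, the higher one at 27.1 ± 0.592 FPKM in sham LV and 20.6 ± 0.838 in sham RV. Among the effectors of alpha-1 receptors, 16 genes were tested. The protein kinase C gene Prkce was lower in sham LV, 2.90 ± 0.674 FPKM, than in sham RV, 8.04 ± 2.23 FPKM, and Prkd2 was higher (0.59, SE 0.14).

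Of the 23 PKA targets and their phosphatases, 4 were called lower in the sham LV, beside 2.35% over all genes tested. Hcn4, the main pacemaker channel, differed most: 0.566, 0.827 and 0.576 FPKM in sham LV and 4.06, 3.01 and 3.52 in sham RV (-1.80, SE 0.28, limma adjusted p = 0.0319). Under VO it averaged 1.14 ± 0.625 FPKM in the LV and 3.22 ± 0.875 in the RV, and it was not called in the difference of the responses. Cacnb2, a subunit of the L-type calcium channel, was at 9.29 ± 1.22 FPKM in sham LV and 21.0 ± 4.22 in sham RV (limma adjusted p = 0.0319). The calcium-release channel Ryr2 (-0.94, SE 0.19) and the calcium pump Atp2a2 (-0.82, SE 0.19) were lower as well. In the difference of the responses 4 were called with the higher value in the LV, beside 3.46% over all genes tested: Cacnb2 (1.67, SE 0.27), Ryr2 (1.61, SE 0.27), Atp2a2 and Hcn2. The limma adjusted p was 0.0249 for Cacnb2, Ryr2 and Prkce. These calls rest on few libraries too: between 3 and 8 of the 12 fits without 1 library kept the call of each gene called between the sham ventricles, and between 3 and 6 kept that of each gene called in the difference of the responses.

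**Figure D4:**
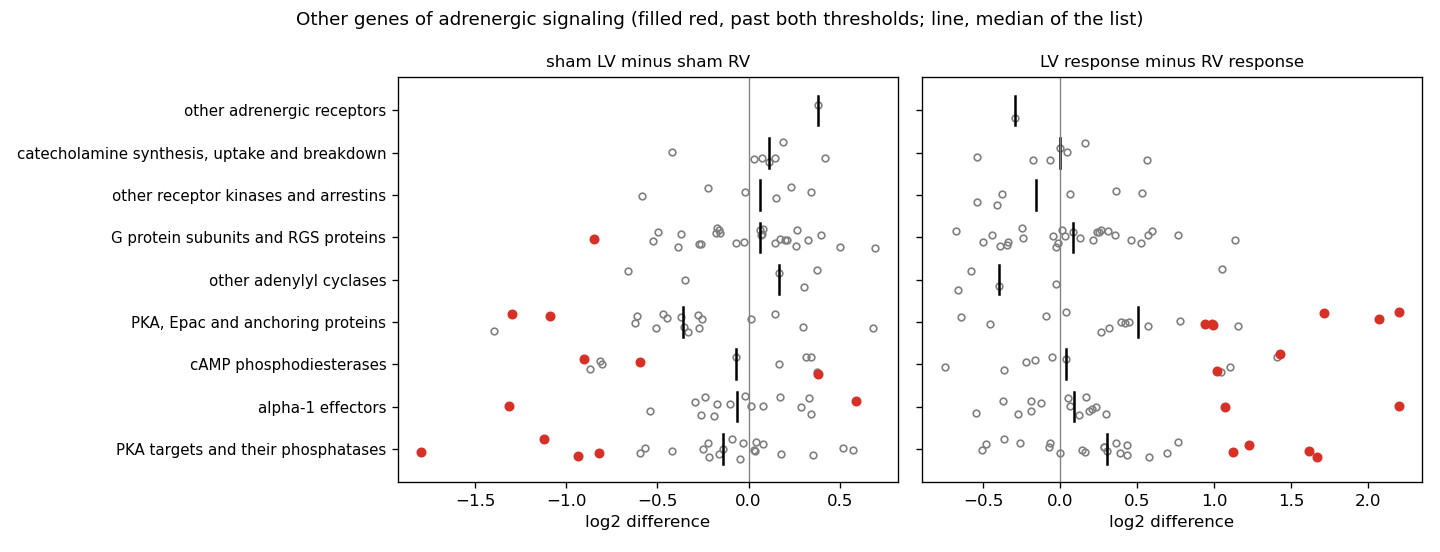
Log2 differences (horizontal axes) of the 114 other pathway genes tested, by list, between the sham ventricles (left) and in the difference of the responses (right). Open circles are genes not called, filled red circles are genes called, and vertical lines are the medians of the lists. On the left 10 of the 12 called genes lay below 0, and on the right the 14 called genes lay above 0.

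The genes whose levels followed each member most closely were searched among 12836 protein-coding genes over the 12 libraries, on log2 values. For Adra1a these were Inppl1 (Pearson's r = 0.984), Celsr1 (0.982) and Jph2 (0.981). Jph2, which encodes the junctophilin that ties the cell membrane to the calcium store, averaged 50.01 FPKM in sham LV and 140 in sham RV, and under VO the LV had 150 and the RV 80.8. For Adcy5 they were Kcnj2 (0.983), Pcmt1 (0.977) and Kcnh2 (0.976), of which Kcnj2 and Kcnh2 encode potassium channels, and Kcnj2 averaged 2.17, 7.94, 6.69 and 3.78 FPKM in the same order of groups. For Adrb1 they were Coa5 (0.969), Dnaja4 and RGD1304963 (both 0.968). The closest genes were less close for 3 other members: Per1 for Adra1b (0.927), LOC691485 for Adra1d (0.946) and Dpy19l1 for Grk5 (0.934). These values of r come from a search of many genes over 12 shared libraries and are given as a description only.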

How the data were processed

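Myocardium of the free walls was sequenced after library preparation with the NEBNext Ultra RNA kit. Per the labels' processing notes and the methods, the authors aligned reads with HISAT2 2.0.5, counted them per gene with featureCounts 1.5.0-p3 and deposited FPKM, the only unit used here. The genome build was not given in the sources used here, nor whether counting used strand. All 12 value columns were matched to samples by name. Values times gene length, divided by 1 step per library found from the low values, were whole reads in 100% of the values up to 200 reads (tolerance 0.02 reads), so depth could be given. FPKM were divided by median-ratio size factors (1.00 to 1.01), 0.5 was added and log2 taken, and 1 limma model (3.58.1, with trend, R 4.3.3) of the 4 groups was fitted to the 13910 genes averaging at least 0.5 FPKM, with Benjamini-Hochberg adjustment within each comparison. Members, gene lists and markers were chosen with earlier results of these data known. Named beyond the members were Adra2a, Grk2, Gnas and Adcy9, the 3 called pathway genes of smallest adjusted p per comparison, and the 3 genes most like each member. The text also names other pathway genes, some of them not called, chosen once their values were known. Some genes that these rules name are not reported here and are left out of the pathway counts. Of 136 pathway symbols, 4 were not found (Grk2 and Grk3 are listed as Adrbk1 and Adrbk2), and 134 table entries matched. Alternatives were a pseudocount of 1, no low-value filter, no size factor, a replicate block, limma-voom on recovered reads, removal of a length trend (lowess) and leaving out each library. Leaving out both libraries with high Sln and a Y-linked covariate were chosen after seeing the data. Reads of near-identical genes or overlapping genes could not be told apart.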

Additional observations from a re-analysis of the deposited data

Results flagged for a closer look

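For these genes the response to VO was called different between the LV and the RV. The contrast was the interaction term of the limma model (LV response minus RV response on the log2 scale). Over all genes tested 4.19% were called in it. None of the calls below was made without both libraries with high Sln, with the replicate block, or without several single libraries in turn. Members among these genes are 3, chosen with this contrast known and so given as a description, Adra1a at 3.38, Adcy5 at 1.33 and Adrb1 at 1.26. The called regulators and anchors of PKA were Pkia at 2.20, Akap6 at 2.07, Prkar2a at 1.71, Akap1 at 0.99, Akap7 at 0.98 and Prkar1a at 0.94. The phosphodiesterases were Pde7b at 1.43 and Pde4a at 1.01, and the protein kinase C genes were Prkce at 2.20 and Prkca at 1.07. The channels and pumps were Cacnb2 at 1.67, Ryr2 at 1.61, Atp2a2 at 1.23 and Hcn2 at 1.12. With groups of 3 libraries no single library was tested as an outlier.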

How the results depend on the processing

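No called gene or count reversed its direction under the alternatives run, but the number of calls changed. Counts are given in the order sham LV minus sham RV, VO LV minus sham LV, VO RV minus sham RV, VO LV minus VO RV and difference of the responses. For all genes tested, the counts of 537, 13, 0, 1 and 583 ran over 0 to 870, 0 to 554, 0 to 1, 1 to 48 and 0 to 1003 when 1 library was left out. For the members, 3, 0, 0, 0 and 3 ran over 0 to 4, 0 to 3, 0, 0 and 0 to 4, and for the other pathway genes, 12, 0, 0, 0 and 14 ran over 0 to 18, 0 to 13, 0, 0 and 0 to 21. With all genes above 0 (21603 genes), 8, 5, 1 and 21 genes were called in the first 3 comparisons and the last, 0 members and 0 pathway genes in the first, and 1 member, Adra1a, and 0 pathway genes in the last. With limma-voom on recovered reads, VO LV minus sham LV had 339 calls, 3 of them members and 10 other pathway genes. With the length trend removed it had 5 calls. Without both libraries with high Sln (sham RV replicate 1 and VO RV replicate 2), 7, 2, 2, 2 and 2 genes were called, and 0 members and 0 pathway genes in the first and last comparison. With the Y-linked covariate, VO LV minus sham LV had 0 calls and the difference of the responses 176, with 7 pathway genes. Deviations of same-numbered libraries from their group means correlated at -0.28 to 0.12, and 2 of 18 pairs were over 0.1. Pairs of sham with VO libraries are among them and cannot share a rat. Same-numbered sham LV and sham RV libraries correlated at 0.04 to 0.12. This check does not settle whether they came from the same rat. With the replicate block, 3, 3 and 2 genes were called in sham LV minus sham RV, VO LV minus sham LV and VO LV minus VO RV, and 1 in the difference of the responses, with 0 members and 0 pathway genes in the first and last of these. The causes were not tested, except that fits without libraries or with added terms have fewer degrees of freedom and the fit of all genes above 0 adjusts over more genes. For Adra1a, limma-voom gave -2.82 between the sham ventricles and 4.13 for the difference of the responses, and a pseudocount of 1 gave 2.91 for the latter. With 22 to 46 reads in sham LV, Adra1a is counted imprecisely there, and the part of counting in its spread between libraries was not tested.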
